A study of Homo sapiens with 15 samples.

Results

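The genes described here are 50 genes of mitosis and the G2/M phase of the cell cycle, chosen from a list of symbols and matched exactly to the gene names of the deposited tables. Each symbol matched 1 of 60107 genes listed, and all 50 passed the filter on low counts, beside 10495 genes in all. MIA PaCa-2, an established line grown from a human carcinoma of the pancreas, supplied the RNA for 5 groups of 3 libraries. Cells received vehicle (Ctrl) or 5 µM of Lys05, BAQ12, BAQ13 or BAQ12O for 24 h. Lys05 is a bisaminoquinoline (BAQ) that accumulates in lysosomes. BAQ12 and BAQ13 join the head of Lys05 to a hydrophobic tail, assemble into nanoparticles and differ from each other by 1 methylene unit of that tail. BAQ12O is known only by its label and the series' design text. The groups carried no genetic change, and the model is 1 cell line at 1 dose and 1 time. Nothing in the labels says whether the 3 libraries of a group came from separate cultures, so p-values measure the spread between these libraries, which may be technical.

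Entry into mitosis is driven by CDK1 bound to cyclin B, which is activated by the phosphatase CDC25C and amplified by the kinases PLK1 and AURKA. Kinetochores then join chromosomes to the spindle, the checkpoint kinases BUB1 and TTK hold the cell until all are attached, and the anaphase-promoting complex with CDC20 ends mitosis by marking cyclin B and securin for destruction. Most of these genes are transcribed late in the cycle, are held down by the DREAM complex in resting cells, and are switched on by B-MYB and FOXM1 through the cell cycle genes homology region (CHR) and nearby CCAAT boxes in their promoters. Their mRNA in a population of cells therefore follows, as background, the share of cells in G2 and mitosis. In bulk RNA a smaller share of such cells and less mRNA per cell cannot be told apart.

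The promoter letters that these genes are known for were read from RefSeq promoter windows (GRCh38.p14, 250 bases before to 50 after each annotated start), which covered 42 of the 50 members in 50 windows. The CHR was searched as TTTGAA and the CCAAT box as CCAAT, on both strands, and matches may overlap. TTTGAA was found in 34 of the 50 windows (68%), beside 15.2% of all 35116 windows, and CCAAT in 36 (72%), beside 34.6%. Both were present in 28 windows of 26 members (56% of windows, beside 5.9% of all). A match is a string of letters and does not show that a factor binds there. No window was given for BIRC5, ANP32E, UBE2C, HMGB2, TTK, CDCA2, AURKA and TPX2. HMMR and ECT2, the members that passed the test below, both have a window with both motifs. CKS2, MKI67, CDK1 and CCNB2 are shown beside them for their levels below and were chosen after the values were seen. Capitals mark the letters of the CHR and of the CCAAT box, or the reverse complement of either, read on the strand of the gene. The stretch of HMMR (chr5:163460595-163460624, plus strand) holds a pair of abutting CHR matches, and that of ECT2 (chr3:172750576-172750681, plus strand) 1 CHR and 2 CCAAT matches. The stretches of CKS2 (chr9:89311045-89311194, plus strand) and MKI67 (chr10:128126424-128126573, minus strand) end at the base before the start. Those of CDK1 (chr10:60778397-60778426, plus strand) and CCNB2 (chr15:59105105-59105134, plus strand) are cut to 30 bases around a CHR, as is that of HMMR. All 30 bases of the HMMR, CDK1 and CCNB2 stretches lie before the RefSeq start used here. In the GENCODE 29 annotation they lie within annotated untranslated regions.
HMMR: gtggggagaTTTGAATTTGAAaccggtagg
ECT2: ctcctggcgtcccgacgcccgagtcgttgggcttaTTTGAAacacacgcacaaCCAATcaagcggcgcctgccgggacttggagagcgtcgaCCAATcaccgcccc
CKS2: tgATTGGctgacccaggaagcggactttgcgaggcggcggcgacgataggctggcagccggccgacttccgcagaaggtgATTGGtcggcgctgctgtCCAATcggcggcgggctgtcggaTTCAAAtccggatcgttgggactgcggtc
MKI67: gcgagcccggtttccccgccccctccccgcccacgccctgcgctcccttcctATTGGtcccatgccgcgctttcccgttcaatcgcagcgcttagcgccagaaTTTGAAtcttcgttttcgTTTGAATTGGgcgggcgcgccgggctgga
CDK1: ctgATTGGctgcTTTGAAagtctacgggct
CCNB2: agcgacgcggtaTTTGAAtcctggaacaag

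**Figure D1:**
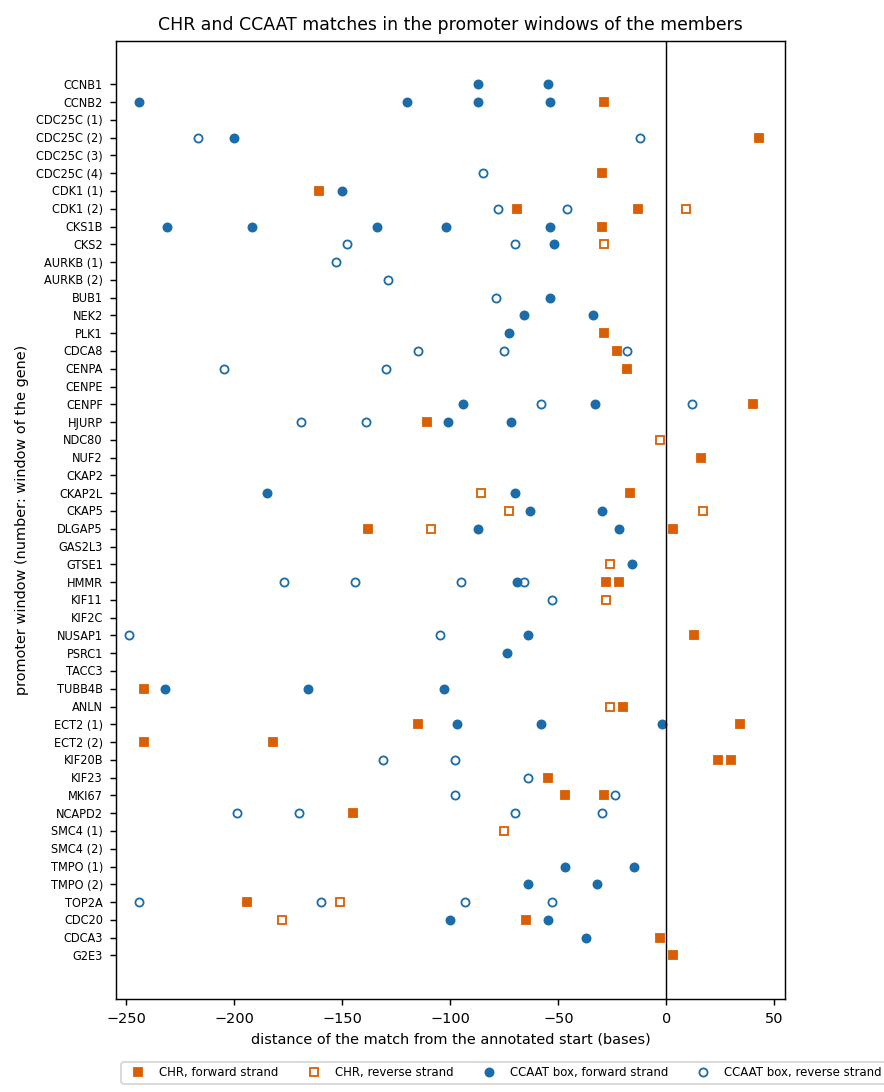
Positions of TTTGAA (CHR, orange squares) and CCAAT (blue circles) in the 50 RefSeq promoter windows of 42 members, by distance from the annotated start in bases; filled marks are on the strand of the gene and open marks on the other. The CHR matches have a median position of -29 and the CCAAT matches of -82, and 25 of 48 and 52 of 84 of them lie in the last 100 bases before the start.

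Whole gene reads recovered from the deposited values numbered 1586566 to 2500551 per library. Expression is given as normalised read count, in which the size factor of each library has been divided out, and the members held 12 to 5974 reads per library, so that every member was measured in every library. Pairs of libraries within the vehicle, Lys05 and BAQ12O groups correlated at r = 0.9747 to 0.9826 (log2 values of 10495 genes). The third BAQ12 library (BAQ12-3) correlated with its group at only 0.9299 to 0.9389 and the first BAQ13 library (BAQ13-1) at 0.9671 to 0.9747. Their deviations from their group means correlated with each other at r = 0.573 over 10495 genes and 0.794 over the 50 members, a description across genes of 2 libraries. The share of reads on mitochondrial genes was 20.6% in BAQ12-3 and 18.7% in BAQ13-1, and 15.8% to 20.4% in the others. Calls are therefore given for all 15 libraries and also without BAQ12-3 or without both. Several differences named below lean on 1 of these libraries, and for some of these the value without it is also given. The labels call the cells epithelial: the keratins KRT8, KRT18 and KRT19 and the mesenchymal genes VIM and ZEB1 had over 3 reads in all 15 libraries, whereas KRT7 and EPCAM had at most 3 reads in every library and CDH1 more than 3 in 1. Of the acinar, endocrine and endothelial markers none had more than 3 reads in any library. Of the fibroblast markers only COL1A2 did, in all 15, and of the leukocyte markers CD68 in 8 and PTPRC in 1. In the GENCODE 29 annotation 11 members overlap another gene on the same strand and 20 on the opposite strand, so that reads of the neighbours may be mixed in.

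**Figure D2:**
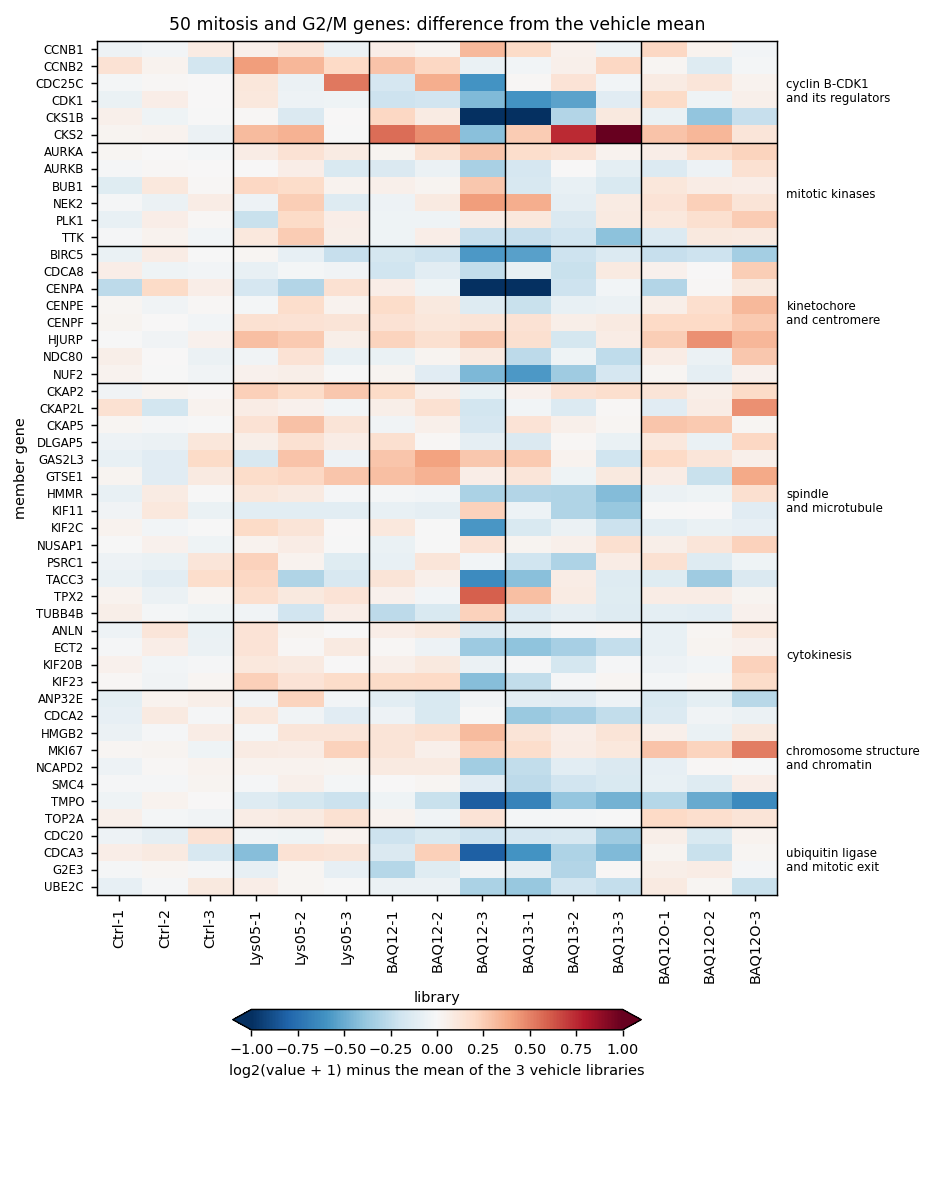
Each row is a member gene, grouped by role, and each column a library; colour is log2(normalised read count + 1) minus the mean of the 3 vehicle libraries, cut off at -1 and 1. BAQ12-3 holds 8 members more than 0.5 below the vehicle mean and BAQ13-1 holds 7, with CKS1B and CENPA lowest, whereas no other library holds more than 1.

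The median estimated difference of the mitotic genes from vehicle lay close to 0 with all 4 agents, while single members lay further from it. With BAQ13, HMMR, a hyaluronan receptor that also organises spindle microtubules, fell by 0.34 on the log2 scale, and it was the only member of 50 to pass the test (limma, Benjamini-Hochberg adjusted p under 0.05), beside 5.77% of all genes tested. No member passed with Lys05 (beside 0.238%), BAQ12 (beside 0.981%) or BAQ12O (beside 1.48%). The median log2 difference of the members from vehicle was 0.042 with Lys05, -0.0088 with BAQ12, -0.088 with BAQ13 and 0.046 with BAQ12O, and that of all genes lay between -0.0042 and 0.0018. Without BAQ12-3 the median of the members with BAQ12 was 0.021. The 95% interval of the difference lay within 2-fold in both directions for 50 members with Lys05, 48 with BAQ12, 47 with BAQ13 and 49 with BAQ12O. The intervals that reached beyond belonged to genes such as CKS1B, for which the interval with BAQ12 ran from -1.52 to 0.25.

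At an unadjusted p under 0.05 the members called were 4 with Lys05 (beside 4.98% of all genes), 5 with BAQ12 (beside 11.8%), 13 with BAQ13 (beside 19.4%) and 6 with BAQ12O (beside 12.8%). All 4 with Lys05 were higher than vehicle (beside 2.82% of all genes higher and 2.16% lower). With BAQ13, 12 were lower (beside 9.09%) and 1 was higher (beside 10.4%). By edgeR and DESeq2 no member passed with Lys05 (beside 0.229% and 0.257% of all genes) or BAQ12 (beside 0.972% and 1.5%). With BAQ13 edgeR called 5 members (beside 6.57%) and DESeq2 called 3 (beside 5.05%). With BAQ12O they called 0 (beside 1.52%) and 2 (beside 1.73%). All 3 Lys05 libraries lay above all 3 vehicle libraries for 12 members (beside 8.24% of all genes) and below for 2 (beside 7.37%). For BAQ12 this held for 6 members above (beside 7.75%) and 6 below (beside 7.61%). For BAQ13 it held for 6 above (beside 14.5%) and 16 below (beside 14.4%). For BAQ12O it held for 13 above (beside 12.5%) and 6 below (beside 13.3%).

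Without BAQ12-3, which widens the spread that all groups share, 10 members passed with BAQ13 (beside 13.7% of all genes) and 4 with BAQ12O (beside 4.99%), and none with Lys05 (beside 0.486%) or BAQ12 (beside 1.31%). With BAQ13 these were CKS2, which was higher, and TMPO, ECT2, NUF2, HMMR, CDK1, CDCA2, SMC4, UBE2C and CDCA3, which were lower. With BAQ12O they were MKI67, CENPF and HJURP, higher, and TMPO, lower. Without both libraries 9 members passed with BAQ13 (beside 12%), 5 with BAQ12O (beside 9.28%), 1 with BAQ12 (beside 2.12%) and none with Lys05 (beside 0.924%). The 9 held CKS2, TMPO, ECT2, NUF2, HMMR, CDK1, CDCA2 and SMC4 again and also KIF11, the 5 were MKI67, CENPF, HJURP, TMPO and TOP2A, and the 1 was CKS2 (higher). Members outside the naming rule are named here because they passed in these settings, a choice made after the values were seen.

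**Figure D3:**
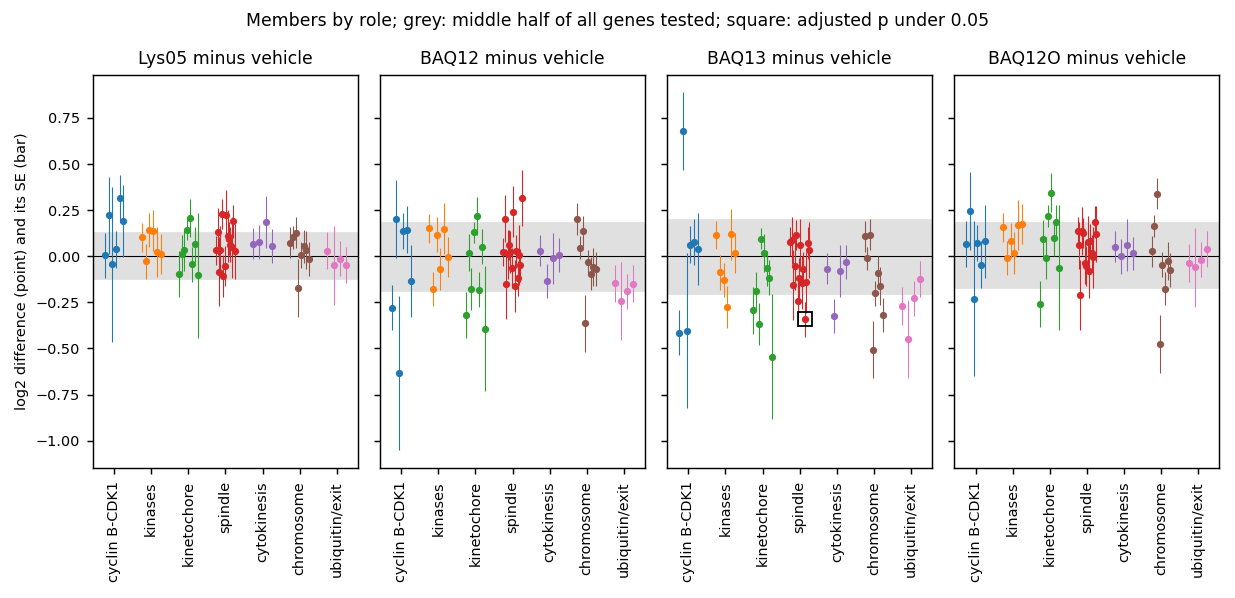
Log2 difference of each member from vehicle for the 4 agents, with its SE (limma, 15 libraries), by role; the grey band runs from the first to the third quartile of all 10495 genes tested and the square marks HMMR, the member with an adjusted p under 0.05. Most members lie in the band, and CKS1B and CENPA have the widest bars.

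Among cyclin B, CDK1 and their regulators, 6 members, none passed the test with all 15 libraries, and with BAQ13 the estimates of CDK1 and CKS2 had opposite signs. CDK1, the kinase that starts mitosis, measured 211, 231 and 221 normalised reads with vehicle and 146, 152 and 205 with BAQ13. All 3 BAQ13 libraries were below the vehicle libraries, 2 of them well below, with a difference of -0.42 ± 0.12 (log2, SE; adjusted p = 0.0573, and 0.00879 without BAQ12-3). CDK1 read 237, 214 and 215 with Lys05, 192, 194 and 162 with BAQ12 and 252, 215 and 229 with BAQ12O. The Lys05 and BAQ12O libraries overlapped with vehicle, and the BAQ12 libraries lay below it at -0.28 ± 0.12 (adjusted p = 0.406). CKS2, a small subunit that docks CDK1 on phosphorylated substrates, measured 191, 192 and 181 with vehicle and 224, 316 and 385 with BAQ13. Its BAQ13 libraries were all higher and spread widely, at 0.68 ± 0.21 (adjusted p = 0.07, 0.000488 without BAQ12-3, and 0.89 with adjusted p = 1.95e-09 without both libraries). CKS2 read 278, 259 and 141 with BAQ12, so that BAQ12-3 lay below every vehicle library and the other 2 above.

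Its paralogue CKS1B, which also serves the ubiquitin ligase that removes the inhibitor p27, measured 307, 287 and 296 with vehicle, 343, 315 and 64.1 with BAQ12 and 146, 242 and 318 with BAQ13. BAQ12-3 and BAQ13-1 held the lowest values, and the other BAQ12 libraries lay above vehicle. With BAQ12 the difference was -0.63 ± 0.42 (adjusted p = 0.538) and turned to 0.15 without BAQ12-3. CCNB1, the main mitotic cyclin, measured 429, 437 and 471 with vehicle and differed from it by 0.036 ± 0.099 with Lys05, 0.14 ± 0.099 with BAQ12 (0.045 without BAQ12-3), 0.063 ± 0.099 with BAQ13 and 0.072 ± 0.099 with BAQ12O. CCNB2, the second B-type cyclin, had 118, 109 and 93.6 normalised reads with vehicle and 143, 134 and 122 with Lys05. The Lys05 libraries all lay above vehicle, the widest difference of any member with this agent at 0.32 ± 0.13 (adjusted p = 0.834). CDC25C, which removes the inhibitory phosphates of CDK1, had 33 to 98 reads per library and differed from vehicle by -0.13 to 0.19, the lowest being that of BAQ12, which turned to 0.098 without BAQ12-3.

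None of the 6 mitotic kinases passed with any agent. PLK1, which promotes entry and spindle assembly, measured 220.0, 242 and 233 with vehicle and 249, 259 and 277 with BAQ12O, where all 3 libraries were higher at 0.18 ± 0.11 (adjusted p = 0.537). AURKA, the centrosomal kinase, had 828, 819.6 and 806 with vehicle and lay above every vehicle library in all 12 treated libraries, by 0.10 with Lys05, 0.15 with BAQ12 (0.088 without BAQ12-3), 0.12 with BAQ13 and 0.16 with BAQ12O on the log2 scale (adjusted p = 0.999, 0.445, 0.442 and 0.412). AURKB, the kinase of the chromosomal passenger complex, read 497, 505 and 503 with vehicle and 453, 480.3 and 399 with BAQ12 (-0.18 ± 0.094, adjusted p = 0.459, and -0.10 without BAQ12-3). BUB1, a kinase of the spindle checkpoint, read 230.0, 269 and 252 with vehicle and 224, 238 and 225 with BAQ13, which overlap. TTK, the kinase upstream of BUB1 in the checkpoint, read 136, 141 and 135 with vehicle and 117, 120.3 and 103 with BAQ13, a difference of -0.28 ± 0.11 without overlap (adjusted p = 0.176, 0.0822 without BAQ12-3). NEK2, which parts the centrosomes, differed by 0.022 to 0.17 from vehicle.

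Of the 8 kinetochore and centromere genes none passed with all 15 libraries. NUF2, a subunit of the NDC80 complex that grips microtubules, measured 538, 522 and 512 with vehicle and 351, 410.1 and 466 with BAQ13. The BAQ13 libraries were all lower, at -0.37 ± 0.11 (adjusted p = 0.0669, 0.00304 without BAQ12-3). Its partner NDC80 read 348, 335 and 321 with vehicle and 279, 325 and 281 with BAQ13, which overlap (-0.19 ± 0.10, adjusted p = 0.333). CENPF, a large kinetochore protein of late G2, measured 1769, 1740.0 and 1710.0 with vehicle and 1993, 1995 and 2083 with BAQ12O. It lay above every vehicle library in all 12 treated libraries, and with BAQ12O the difference was 0.22 ± 0.059 (adjusted p = 0.0825, 0.0167 without BAQ12-3). HJURP, the chaperone that places the centromeric histone, read 188, 183 and 194 with vehicle and 223, 258 and 237 with BAQ12O, higher in each library at 0.35 ± 0.10 (adjusted p = 0.125, 0.0384 without BAQ12-3). The histone itself, CENPA, had only 12 to 43 reads per library. It measured 29.9, 41.3 and 37.6 with vehicle, 37.6, 34.9 and 15.1 with BAQ12 and 13.1, 31.0 and 35.2 with BAQ13, so that its low values were again those of BAQ12-3 and BAQ13-1. The GENCODE release 29 annotation places SLC35F6 on the same strand across part of CENPA, and the counting of shared reads is not given in the sources used here. BIRC5, the survivin subunit of the passenger complex, measured 203, 224 and 213 with vehicle and lay below it in every BAQ12, BAQ13 and BAQ12O library, by -0.32, -0.29 and -0.26 (adjusted p = 0.341, 0.205 and 0.407). Its difference with BAQ12 was -0.19 without BAQ12-3 and that with BAQ13 -0.17 without BAQ13-1. For CDCA8, another subunit of that complex, the difference furthest from 0 was -0.18 with BAQ12, and for CENPE, a kinetochore motor, 0.18 with BAQ12O.

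The spindle and microtubule genes, 14 members, held the call of HMMR (chr5:163460203-163491945, plus strand, GENCODE 29 on GRCh38). HMMR measured 433, 484 and 454 normalised reads with vehicle and 372, 370.0 and 338 with BAQ13. It measured 493, 486 and 452 with Lys05, 450.3, 449 and 367 with BAQ12, and 439, 442 and 510.1 with BAQ12O. All 3 BAQ13 libraries lay below all vehicle, Lys05 and BAQ12O libraries, and of the BAQ12 libraries BAQ12-3 lay among them. The difference of BAQ13 from vehicle was -0.34 ± 0.096 (limma adjusted p = 0.0415, 0.0346 by edgeR, 0.0446 by DESeq2 and 0.00304 without BAQ12-3). With no filter on low counts the call was lost (adjusted p = 0.0828). Leaving out any 1 of the 6 BAQ13 and vehicle libraries also ended it, with adjusted p between 0.06324 and 0.1739 and differences between -0.2982 and -0.381. The antisense gene HMMR-AS1 overlaps HMMR on the other strand, and whether the counting used strand is not given in the sources used here. TPX2, which activates AURKA on the spindle, measured 729.8, 682 and 721 with vehicle and 732, 698 and 1073 with BAQ12, where BAQ12-3 alone stood high. KIF11, the motor that pushes spindle poles apart, read 163, 179.8 and 159.7 with vehicle and 161, 136 and 128 with BAQ13 (-0.24 ± 0.11, adjusted p = 0.246). CKAP2, a microtubule-associated protein, read 406, 424 and 419.5 with vehicle and 491, 473 and 503 with Lys05, all 3 higher, at 0.23 ± 0.081 (adjusted p = 0.762). The other 10 members of this group, CKAP2L, CKAP5, DLGAP5, GAS2L3, GTSE1, KIF2C, NUSAP1, PSRC1, TACC3 and TUBB4B, differed from vehicle by -0.21 to 0.32 over the 4 agents, and none passed the test.

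**Figure D4:**
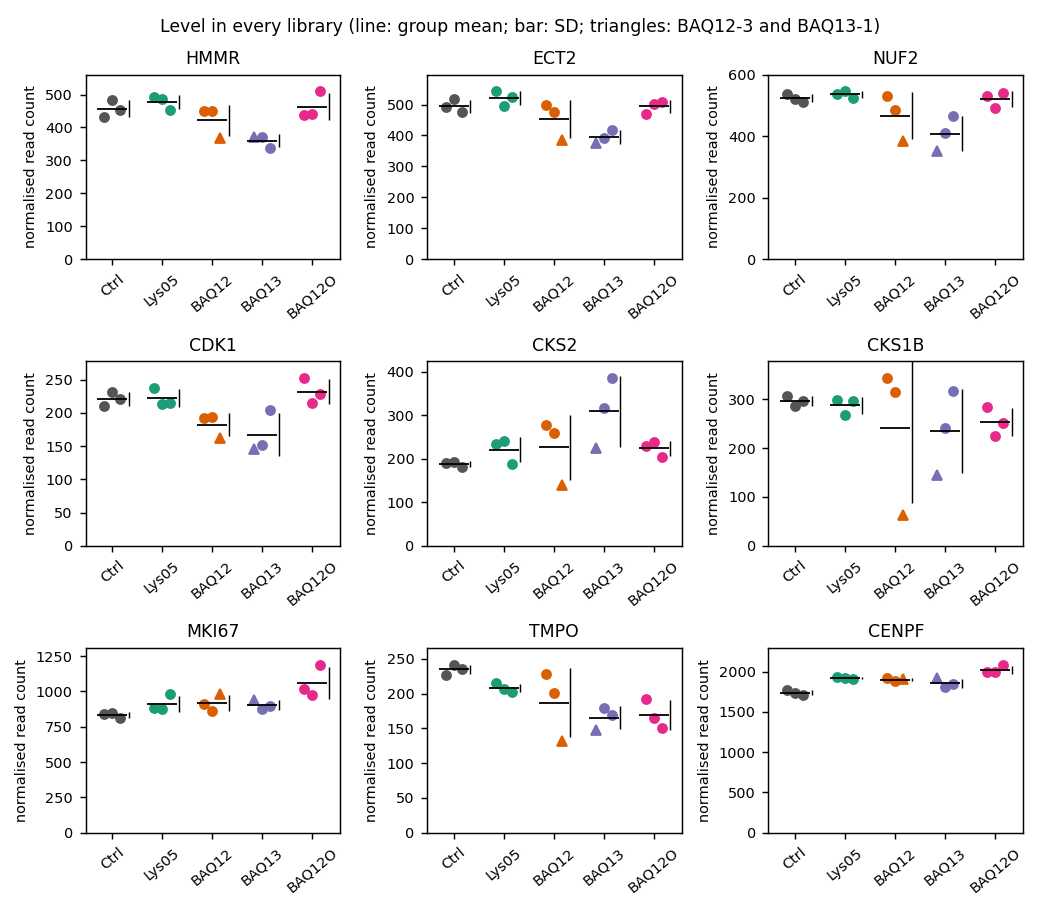
Normalised read count of 9 members in each of the 15 libraries, with the group mean (line) and SD (bar); triangles mark BAQ12-3 and BAQ13-1 and each axis starts at 0. HMMR, ECT2, NUF2 and CDK1 are lower in all BAQ13 libraries than in vehicle, CKS2 is higher, and the low CKS1B points are the triangles.

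Of the 4 cytokinesis genes, ECT2 (chr3:172750682-172821474, plus strand), the exchange factor that activates RhoA at the cleavage furrow, measured 491, 517 and 476 with vehicle and 374, 392 and 419 with BAQ13. The BAQ13 libraries were all lower than the vehicle libraries, at -0.32 ± 0.094 (adjusted p = 0.0523, 0.00285 without BAQ12-3). It read 543, 497 and 525 with Lys05, 499, 476 and 384 with BAQ12, and 470.0, 503 and 509 with BAQ12O, and BAQ12-3 was the one library of these 9 inside the range of BAQ13. ANLN, the furrow scaffold, read 355, 401 and 352 with vehicle and differed from it by -0.032 to 0.056 over the 4 agents. KIF23, the centralspindlin motor, read 164, 159 and 165 with vehicle, 186, 187 and 121 with BAQ12 and 137, 161 and 165 with BAQ13, lowest in BAQ12-3 and BAQ13-1. KIF20B, a midbody motor, differed by -0.067 to 0.067.

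Among the 8 chromosome and chromatin genes, MKI67, which coats mitotic chromosomes and is the usual marker of cycling cells, measured 844, 849 and 809.6 with vehicle and 1015, 975 and 1187 with BAQ12O. It lay above vehicle in every treated library of the 4 agents. The difference with BAQ12O was 0.34 ± 0.083 (adjusted p = 0.051, 0.0314 by DESeq2 and 0.00394 without BAQ12-3), and with Lys05, BAQ12 and BAQ13 it was 0.13, 0.14 (0.088 without BAQ12-3) and 0.12. TOP2A, the topoisomerase that untangles sister chromatids, read 4960.0, 4740.0 and 4688 with vehicle and 5502, 5373 and 5249 with BAQ12O (0.16 ± 0.062, adjusted p = 0.242). TMPO, which encodes the nuclear envelope protein thymopoietin, had estimates of the opposite sign. It read 228, 241 and 236 with vehicle, 215, 207 and 203 with Lys05, 228, 201 and 132 with BAQ12, 147, 179.5 and 169 with BAQ13 and 193, 165 and 150.3 with BAQ12O. All its Lys05, BAQ13 and BAQ12O libraries lay below vehicle, by -0.51 ± 0.16 with BAQ13 (adjusted p = 0.0643, 0.00087 without BAQ12-3) and -0.48 ± 0.16 with BAQ12O (adjusted p = 0.167, 0.00428 without BAQ12-3). The antisense gene TMPO-AS1 overlaps it. SMC4, a core subunit of condensin, read 2575, 2564 and 2636 with vehicle and 2156, 2275 and 2337 with BAQ13, lower in each library at -0.20 ± 0.068 (adjusted p = 0.0969, 0.0191 without BAQ12-3). CDCA2, which brings phosphatase to chromosomes, read 223, 251 and 234 with vehicle and 182, 187 and 199 with BAQ13 (-0.32 ± 0.092, adjusted p = 0.0517, 0.0164 without BAQ12-3). HMGB2, a DNA-bending chromatin protein, read 319, 329 and 349 with vehicle and 364, 371 and 413 with BAQ12, all higher, at 0.20 ± 0.084 (adjusted p = 0.367). NCAPD2, another condensin subunit, and the histone chaperone ANP32E differed most from vehicle with BAQ13 (-0.16) and BAQ12O (-0.18).

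Of the 4 genes of ubiquitin ligases and mitotic exit, UBE2C, the ubiquitin-conjugating enzyme of the anaphase-promoting complex, measured 319, 334 and 359.8 with vehicle and 259, 294 and 286 with BAQ13. The libraries did not overlap, and the difference was -0.27 ± 0.10 (adjusted p = 0.132, 0.0353 without BAQ12-3). The BAQ13 mean of UBE2C was 279.9, and 290.1 without BAQ13-1, its lowest BAQ13 library. CDC20, the activator of that complex, read 265, 257 and 302 with vehicle, 237, 246 and 237 with BAQ12 and 244, 245 and 214 with BAQ13, lower in each library of both agents at -0.19 ± 0.094 and -0.23 ± 0.094 (adjusted p = 0.437 and 0.184). CDCA3, an adaptor for destruction of the kinase WEE1, read 105, 107 and 89.96 with vehicle and 66.3, 81.1 and 73.8 with BAQ13 (-0.45 ± 0.21, adjusted p = 0.258, 0.0424 without BAQ12-3). Neither UBE2C nor CDCA3 passed with BAQ13 when BAQ12-3 and BAQ13-1 were both left out. G2E3, a ubiquitin ligase named for its G2 expression, differed from vehicle by -0.15 to 0.041.

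The 4 agents were next compared with each other at the same dose and time, in 6 pairs. BAQ13 gave lower levels than Lys05 for 2 members, and no other pair separated a member with all 15 libraries. ECT2 fell by 0.40 (95% interval -0.60 to -0.20, adjusted p = 0.0286) and HMMR by 0.41 (-0.61 to -0.20, adjusted p = 0.0288), beside 2.66% of all genes. By edgeR 3 members passed (beside 3.07%) and by DESeq2 2 (beside 3.19%), and with no filter on low counts neither gene passed (adjusted p = 0.05141 and 0.05129). All 3 BAQ13 libraries were below all 3 Lys05 libraries for both genes. The genes passed on these same libraries, so the lack of overlap is no separate support. With p-values adjusted over all 6 pairs together neither passed (adjusted p = 0.0662 and 0.067, beside 1.72% of all genes called). Leaving out 1 of the 6 libraries gave adjusted p from 0.03955 to 0.1283 for ECT2, which passed only without BAQ13-3, and from 0.05253 to 0.126 for HMMR. Of the 50 members 42 had a lower estimate with BAQ13 than with Lys05, with a median of -0.16. Members were measured in the same libraries, and this count of signs was not tested. The share of all genes lower in this pair is not given, so the count is not read as a result about the members. At an unadjusted p under 0.05 there were 12 members (beside 14.6%). Without BAQ12-3, 11 members passed (beside 7.76%): ECT2, HMMR, NUF2, TTK, CDK1, SMC4, UBE2C, CDCA2, TMPO and BUB1 were lower and CKS2 was higher. Adjusted over the 6 pairs, 5 of these passed in that setting (beside 5.12%), and without both libraries 5 members passed when adjusted within the pair (beside 6.01%).

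BAQ12 and BAQ13, which differ by 1 methylene unit, were not separated in any member with all 15 libraries (0 by limma, edgeR and DESeq2, beside 0.562%, 0.686% and 0.857% of all genes, and 6 members at an unadjusted p under 0.05, beside 8.27%). The 5 largest differences, BAQ13 minus BAQ12, were those of CKS2 (0.47 ± 0.21), GAS2L3 (-0.28 ± 0.15), KIF11 (-0.26 ± 0.11), CDCA2 (-0.25 ± 0.092) and BUB1 (-0.25 ± 0.093) on the log2 scale with their SE. Without BAQ12-3 those of CKS2 and KIF11 were 0.16 and -0.16. The 95% interval lay within 2-fold for 49 of the 50 members, the exception being CKS1B, which reached 1.11. Without BAQ12-3, HMMR and ECT2 passed (beside 3.16%), lower with BAQ13 by 0.32 and 0.30 (adjusted p = 0.0407 and 0.0378), also when adjusted over the 6 pairs (adjusted p = 0.0467 and 0.0434, beside 2.59%). Without both libraries HMMR alone passed (adjusted p = 0.0184, beside 2.28%, and 0.0824 for ECT2). Both calls of this pair are absent when BAQ12-3 is kept.

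BAQ12 and Lys05 were not separated in any member (0 by the 3 tools, beside 0.162%, 0.162% and 0.447% of all genes, and 3 at an unadjusted p under 0.05, beside 7.17%). The largest differences, BAQ12 minus Lys05, were those of CKS1B (-0.59 ± 0.42), CDC25C (-0.33 ± 0.20), CENPA (-0.29 ± 0.34), GAS2L3 (0.29 ± 0.15) and CDK1 (-0.28 ± 0.12). Without BAQ12-3 those of CKS1B, CDC25C and CENPA were 0.19, -0.095 and 0.11. None passed without BAQ12-3 (beside 0.248%) or without both (beside 0.515%).

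BAQ12O was compared with each of the other agents. Against BAQ13 no member passed with all 15 libraries by any of the 3 tools (beside 1.39%, 1.45% and 1.5% of all genes). The estimate was higher with BAQ12O than with BAQ13 for 44 of the 50 members. Members were measured in the same libraries, so their signs are not independent, and this count was not tested. The share of all genes higher with BAQ12O is not given, so the count is not read as a result about the members. At an unadjusted p under 0.05 there were 15 (beside 11.2%), all higher with BAQ12O (beside 5.56% of all genes higher and 5.69% lower). The largest differences, BAQ12O minus BAQ13, were those of CENPA (0.48 ± 0.34), CDK1 (0.48 ± 0.12), CKS2 (-0.43 ± 0.21), CDCA3 (0.39 ± 0.21) and HMMR (0.36 ± 0.096). Without BAQ13-1 those of CENPA and CKS2 were 0.057 and -0.64. Without BAQ12-3, HMMR, CDK1, ECT2, NUF2 and CENPE passed (beside 3.69%), and all 5 also passed after adjustment over the 6 pairs (beside 3.22%). Without both libraries 9 passed (beside 5.09%).

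Against Lys05 no member passed by any of the 3 tools (beside 0.248%, 0.229% and 0.382% of all genes), 3 reached an unadjusted p under 0.05 (beside 7.36%), and none passed without BAQ12-3 (beside 0.791%) or without both (beside 2.49%). The largest differences, BAQ12O minus Lys05, were those of CCNB2 (-0.36 ± 0.13), TMPO (-0.30 ± 0.16), ANP32E (-0.23 ± 0.09), MKI67 (0.21 ± 0.083) and KIF2C (-0.19 ± 0.14). Against BAQ12 none passed by any tool (beside 0.229%, 0.219% and 0.309% of all genes), 4 reached an unadjusted p under 0.05 (beside 8.38%), none passed without BAQ12-3 (beside 0.515%), and 2 passed without both (beside 2.74%). The largest of these differences, BAQ12O minus BAQ12, were those of CKS1B (0.40 ± 0.42), CDK1 (0.35 ± 0.12), CENPA (0.33 ± 0.34), CDCA8 (0.28 ± 0.095) and CKAP5 (0.24 ± 0.087). Without BAQ12-3 those of CKS1B and CENPA turned to -0.38 and -0.071. In these pairs the 95% intervals lay within 2-fold for 49 and 48 of the 50 members. The comparisons share libraries, so their values are not independent of each other.

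Other genes of the cell cycle were read from lists beside the 50 members. Of 86 other mitosis genes, all tested, the median log2 difference from vehicle was -0.022 with Lys05, -0.083 with BAQ12, -0.18 with BAQ13 and -0.09 with BAQ12O. Without BAQ12-3 the median with BAQ12 was -0.024. With BAQ13, 5 of the 86 passed, a share like the 5.77% of all genes. The centromere proteins CENPU (-0.62 ± 0.12) and CENPQ (-0.64 ± 0.16) and the checkpoint protein MAD2L1 (-0.78 ± 0.20) were lower, while the midbody protein CEP55 (0.41 ± 0.086) and the centromere protein CENPI (0.75 ± 0.17) were higher. CENPQ and MAD2L1 are named to complete the count, after their values were seen. None passed with Lys05, BAQ12 or BAQ12O by limma (beside 0.238%, 0.981% and 1.48% of all genes), edgeR or DESeq2. At an unadjusted p under 0.05 by limma there were 5, 9 and 10 (beside 4.98%, 11.8% and 12.8%). Without BAQ12-3 the calls with BAQ13 were 15 lower and 3 higher (beside 13.7% of all genes). In that setting CEP55 (higher) passed with BAQ12 (beside 1.31%), and CIT (higher) and ZWINT (lower) with BAQ12O (beside 4.99%). Of 24 regulators of G2/M transcription, 22 were tested and none passed with any agent by limma. At an unadjusted p under 0.05 there were 1, 3, 7 and 2 with Lys05, BAQ12, BAQ13 and BAQ12O (beside 4.98%, 11.8%, 19.4% and 12.8% of all genes). The edgeR test called 1 with BAQ13 (beside 6.57%) and DESeq2 none. The regulators with the smallest p with BAQ13 were E2F1 (-0.92 ± 0.27, adjusted p = 0.0553), E2F4 (-0.46 ± 0.15) and the kinase DYRK1A (0.30 ± 0.10). E2F1 and E2F4 passed without BAQ12-3 (beside 13.7%).

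The genes of DNA replication, which peak earlier in the cycle, had medians further from 0 than the mitotic genes with each agent; the lists were not tested against each other. Of 42 S-phase genes, 40 were tested, and their median difference was -0.25 with Lys05, -0.40 with BAQ12 (-0.34 without BAQ12-3), -0.49 with BAQ13 and -0.38 with BAQ12O. With these agents 37, 36, 38 and 40 of the 40 had a lower estimate than vehicle, beside 13, 26, 33 and 20 of the 50 members. Of all 10495 genes tested, 5206 had a lower estimate with Lys05 and 5272 with BAQ12. The counts of all genes with BAQ13 and BAQ12O are not given here. Without BAQ12-3, those lower with BAQ12 were 18 of the 50 members, 37 of the 40 S-phase genes and 5104 of all genes. These counts of signs were not tested. The S-phase genes that passed the test by limma were all lower. They numbered 0 with Lys05 (beside 0.238% of all genes), 5 with BAQ12 (beside 0.981%), 15 with BAQ13 (beside 5.77%) and 6 with BAQ12O (beside 1.48%). With Lys05, edgeR and DESeq2 also called 0 (beside 0.229% and 0.257%), and 9 reached an unadjusted p under 0.05 by limma (beside 4.98%). Without BAQ12-3 the limma calls numbered 2, 7, 21 and 17 (beside 0.486%, 1.31%, 13.7% and 4.99%). DTL, which targets the licensing factor CDT1 for destruction, had the smallest p with all 4 agents, at -0.55 ± 0.13, -0.64 ± 0.13, -0.996 ± 0.13 and -0.81 ± 0.13 (adjusted p = 0.148, 0.0185, 6.36e-05 and 0.00228). CDC6, which loads the replicative helicase, was lower with BAQ12 (-0.98 ± 0.20, adjusted p = 0.0204), as was the helicase HELLS (-0.61 ± 0.13). CDCA7 and the checkpoint mediator CLSPN were lower with BAQ13 (-0.92 ± 0.12 and -0.93 ± 0.15), and CDCA7 and the helicase subunit MCM4 with BAQ12O (-0.64 ± 0.12 and -0.58 ± 0.12). These genes are named for the agents where their p was among the 3 smallest, and most passed with others too. CDC6 was also lower with BAQ13 (-1.04) and BAQ12O (-0.91). With BAQ13 so were HELLS (-0.74) and MCM4 (-0.68), and with BAQ12 so was CDCA7 (-0.54). TTTGAA was found in 9.52% of the promoter windows of the S-phase genes, in 40.4% of those of the other mitosis genes and in 68% of those of the members.

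**Figure D5:**
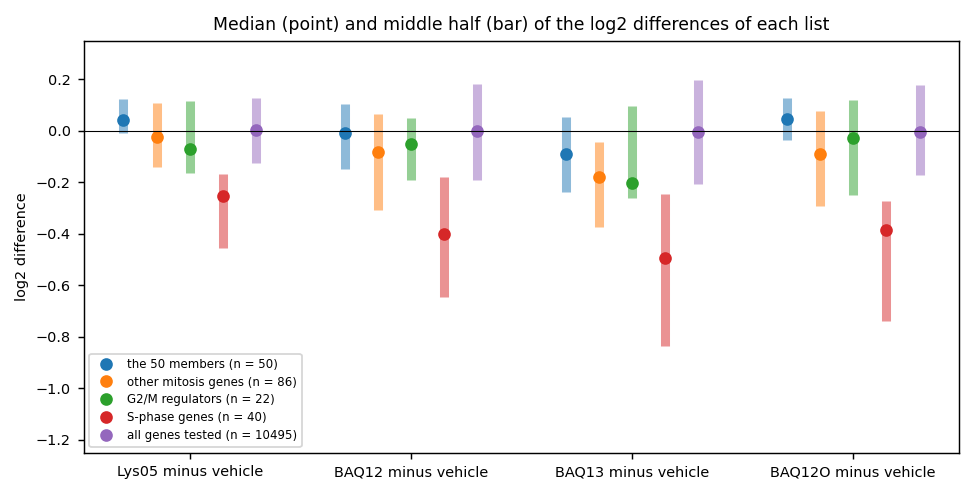
Median (point) and interquartile range (bar) of the log2 differences from vehicle for the 50 members, 86 other mitosis genes, 22 regulators of G2/M transcription, 40 S-phase genes and all 10495 genes tested, for each agent. The median of the members lies near 0 with every agent, and that of the S-phase genes lies below 0 with all 4, lowest with BAQ13.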

How the data were processed

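Normalised signal per gene in 15 libraries was deposited by the authors, 1 value per gene and library, with each library's reads scaled by its size factor. Their processing notes name STAR, HTSeq and DESeq2 and GRCh38 (hg38); versions and counting settings are not given in the sources used here, and the library kit is named differently in the methods and the labels, so levels were not compared between genes. In each library 100% of values were whole multiples of 1 step (tolerance 0.01 read), and whole reads were recovered. Genes were kept by edgeR's filterByExpr by group (minimum count 10, minimum total 15).

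The main test was limma 3.58.1 (R 4.3.3; eBayes with a variance trend) on log2(value + 1) over all 15 libraries, with Benjamini-Hochberg adjustment over 10495 genes and a threshold of 0.05; fold changes on this scale understate those of low genes. Alternatives were edgeR 4.0.16, DESeq2 1.42.0, pseudocounts of 0.1 and 5, other filters, TMM factors, a fit on just the 6 libraries of a comparison, a block for replicate number, and leaving out libraries; leaving out BAQ12-3 and BAQ13-1 together, and BAQ13-1 where it was not compared, was added after seeing the data. The tools were tested on simulated counts. These had the same dispersion for every gene and no deviating library, so the test does not cover the effect of BAQ12-3 or BAQ13-1. Members, gene lists and tests were chosen with earlier results of these data known. The genes named were a fixed set of 21 members, members past the threshold, the 5 largest differences where none passed, and the 3 smallest p-values of each other list, with exceptions stated; values and intervals cover these libraries only. Depth was 1586566 to 2500551 reads per library, with a floor of 3 reads that covers counting error only.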

Additional observations from a re-analysis of the deposited data

Results flagged for a closer look

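The differences between BAQ13 and Lys05 in ECT2 and HMMR were picked out because the test of the difference itself passed. With vehicle as the shared control, ECT2 differed from vehicle by 0.077 ± 0.094 with Lys05 and -0.32 ± 0.094 with BAQ13, and the difference between the agents was -0.40 (limma adjusted p = 0.0286). HMMR differed by 0.062 ± 0.096 and -0.34 ± 0.096, and between the agents by -0.405 (adjusted p = 0.0288). For both genes every BAQ13 library lay below every Lys05 library. The genes were picked on these same libraries, so this adds no support. The part that BAQ13-1 plays was measured by leaving it out: the differences were then -0.36 and -0.43, with adjusted p = 0.1248 and 0.05721.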

How the results depend on the processing

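No value that passed the test changed direction under the alternatives run. The tally of single genes covers members that passed a comparison with all 15 libraries or without BAQ12-3. Over these and their alternatives 443 values kept their side of the threshold, 80 came to pass it and 23 no longer passed. Other named genes were not tallied, and some changed sign when a library was left out, as given above. Of the medians 170 moved by less than the spread between libraries, and the exceptions were BAQ12O against vehicle without BAQ12O-3 (0.00139) and BAQ13 against BAQ12 without BAQ12-3 (-0.1585). The count of members called with BAQ13 against vehicle was 1 and became 4 with at least 10 reads in every library (beside 7.5% of all genes fitted), 3 with DESeq2 (5.05%), 3 with TMM factors (5.84%), 5 with edgeR (6.57%), 5 with only the 6 libraries compared (9.02%), 9 without both BAQ12-3 and BAQ13-1 (12%), 0 with no filter (2.09%) and 0 with the replicate number as a block (4.88%), where all 15 libraries gave 5.77%. Leaving out 1 library gave 0 to 10, the 10 being without BAQ12-3 (13.7%), 2 without BAQ13-3 (4.47%), and 0 without BAQ13-2 (3.53%) or any 1 vehicle library (3.05% to 3.92%); without BAQ13-1 it was 1, CKS2. For BAQ12O against vehicle the count of 0 (1.48% of all genes) became 1, 2, 5 and 5 with at least 10 reads (1.97%), DESeq2 (1.73%), only the 6 libraries (8.3%) and both left out (9.28%), and 0 to 4 with 1 library left out (4.99% without BAQ12-3, which gave the 4). For BAQ13 against Lys05 the count of 2 (2.66%) became 0 with no filter (0.949%), 0 with the replicate block (1.9%), 5 with both left out (6.01%) and 0 to 11 with 1 left out (11 without BAQ12-3, beside 7.76%, and 0 without BAQ13-1, BAQ13-2 or any 1 Lys05 library, beside 1.47% to 1.75%). Both left out gave 1 for BAQ12 against vehicle (2.12%), 1 for BAQ13 against BAQ12 (2.28%), 2 for BAQ12O against BAQ12 (2.74%) and 9 for BAQ12O against BAQ13 (5.09%), where 1 left out gave 0 to 2 for BAQ13 against BAQ12 and 0 to 5 for BAQ12O against BAQ13. Where a filter or the number of libraries changes, so does the number of genes tested or the spread shared; otherwise the cause was not tested. Same-numbered libraries did not deviate together (correlations from -0.492 to 0.2), so the numbers are not taken as pairs, and the block, which ended the calls of HMMR with BAQ13 against vehicle (adjusted p = 0.06314) and of ECT2 and HMMR against Lys05 (0.05884 and 0.05234), changed no other count of members. At 3 libraries a group the median SE of a member was 0.102 on the log2 scale, which limits what could be called.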

Other observations

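Genes whose products work with those of the mitotic genes were read from a pair of further lists. Of 15 subunits of the anaphase-promoting complex, 13 were tested and none passed with any agent by limma, edgeR or DESeq2. At an unadjusted p under 0.05 by limma there were also 0 (beside 4.98% to 19.4% of all genes). Their median log2 difference from vehicle was -0.073 with Lys05, 0.032 with BAQ12, 0.064 with BAQ13 and 0.0057 with BAQ12O. Of 11 cohesin genes, which hold sister chromatids together, all were tested and none passed by the same tools. At an unadjusted p under 0.05 by limma there were 1, 1, 2 and 2 with the agents in that order (beside 4.98%, 11.8%, 19.4% and 12.8% of all genes). The medians of the cohesin genes were 0.03, 0.015, 0.012 and 0.02. ESCO2, the acetyltransferase that locks cohesin onto chromatids during S phase, was the lowest of them with each agent, at -0.78 ± 0.24, -0.66 ± 0.24, -0.58 ± 0.24 and -0.60 ± 0.24 (adjusted p = 0.517, 0.295, 0.192 and 0.286). The cohesin loader NIPBL was at 0.19 ± 0.078 with BAQ13 (adjusted p = 0.19).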
